A study of Homo sapiens with 44 samples.

Results

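Prostaglandin genes were measured by bulk RNA sequencing in Ccd18-Co, a fibroblast line from normal human colon. The 9 genes described here are the enzymes that release arachidonic acid and turn it into prostaglandins (PLA2G4A, PTGS1, PTGS2, PTGES, PTGIS and PTGDS), an enzyme that breaks them down (HPGD) and a pair of prostaglandin E2 receptors (PTGER2 and PTGER4). They were taken by symbol from the 40663 gene symbols of the count table, by a list that used no cut-off on their values but was drawn up with earlier results of these data known, and all 9 were found there. Of these, 6 passed the filter on low counts and were tested among 9513 genes, and PTGDS, PTGER4 and HPGD did not pass it.

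Prostaglandins are lipid signals made on demand. Cytosolic phospholipase A2 (PLA2G4A) frees arachidonic acid from membranes, a cyclooxygenase (PTGS1 or PTGS2) converts it to a common precursor, and a terminal synthase decides the product: PTGES makes prostaglandin E2, PTGIS makes prostacyclin and PTGDS makes prostaglandin D2. In the gut, fibroblasts are a known source of prostaglandin E2, which acts on the epithelium, blood vessels and leukocytes through receptors that include EP2 (PTGER2) and EP4 (PTGER4).

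The 44 libraries formed 11 groups of 4 replicates each. Cells were kept without serum for 72 h and then either left unstimulated or given 1 recombinant human cytokine for 24 h. By the labels the doses were 0.1 ng/ml for IL-1β (the study's text also gives a lower one) and 10 ng/ml for TNF, IL-17A, OSM, IL-6, IL-22, IFNα, IFNγ, IL-13 and TGFβ1. All groups are therefore the same serum-starved cell line, 1 donor's cells grown without epithelium or leukocytes, and each cytokine was measured at a single dose and time. All 10 comparisons with unstimulated cells share the same 4 unstimulated libraries, so they are not independent of each other. Nothing in the labels says that replicates were separate cultures, and p-values then measure only the spread between these libraries, which may be technical.

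Total counts ranged from 742173 to 2213424 per library, so that a floor of 3 counts corresponded to 1.39 to 3.85 CPM (counts scaled to a library size of 1e6, with edgeR's TMM factors). The 8 fibroblast markers looked at (such as COL1A1 and DCN) were detected, with a summed level of 17292 to 53028 CPM, whereas the summed level was 0 to 26.6 CPM for 4 epithelial markers (VIL1 being the only one above 3 counts in any library), 0 to 9.14 CPM for 2 mast cell markers, 0 to 2.65 CPM for 3 endothelial markers and 0 to 2.81 CPM for 2 glial markers. For 4 leukocyte markers it was 0 to 73.8 CPM, with CD68 at 59.1 ± 16.7 CPM after IFNα against 2.87 ± 3.32 CPM in unstimulated cells. A known target gene rose for 7 of the 10 cytokines, and not for IL-17A (LCN2 was at 0 in both groups), IL-6 or IL-22 (SOCS3 for both). A call below means a p under 0.05 in the quasi-likelihood test of edgeR, after Benjamini-Hochberg adjustment over all 9513 genes. In bulk RNA, fewer cells that express a gene and less RNA per cell cannot be told apart.

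PTGS2, PTGES and PLA2G4A were the members that rose after both IL-1β and TNF, and the 250 bases just before their start sites are shown for that reason, 5′ to 3′ on the gene's own strand, from RefSeq's start sites on GRCh38.p14, with matches to the motifs searched in capitals.
PTGS2, minus strand, chr1:186680424-186680673: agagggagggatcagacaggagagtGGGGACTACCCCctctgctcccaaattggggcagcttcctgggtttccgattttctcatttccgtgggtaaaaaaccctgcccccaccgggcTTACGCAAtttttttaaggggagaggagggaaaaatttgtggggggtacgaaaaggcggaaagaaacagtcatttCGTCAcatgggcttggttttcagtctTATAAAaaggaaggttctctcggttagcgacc
PTGES, minus strand, chr9:129753043-129753292: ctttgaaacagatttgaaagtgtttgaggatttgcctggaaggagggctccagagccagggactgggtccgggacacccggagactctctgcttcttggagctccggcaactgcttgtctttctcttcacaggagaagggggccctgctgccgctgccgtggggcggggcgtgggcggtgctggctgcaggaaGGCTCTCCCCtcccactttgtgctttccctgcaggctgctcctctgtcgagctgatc
PLA2G4A, plus strand, chr1:186828699-186828948: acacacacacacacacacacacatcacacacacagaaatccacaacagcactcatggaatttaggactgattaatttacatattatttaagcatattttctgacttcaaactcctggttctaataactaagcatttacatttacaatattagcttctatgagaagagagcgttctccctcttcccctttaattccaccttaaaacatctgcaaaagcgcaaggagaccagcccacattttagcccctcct
The 8 motifs were searched by their letters on both strands, N being any base. The PTGS2 window held 3 mutually overlapping matches to the NF-kB letters (GGG and CC with 5 bases between them), 225 to 214 bases before the start, a match to the C/EBP letters TTNNGNAA at 133 to 126 bases, the core letters TGACG of the cyclic AMP response element (on the opposite strand) at 58 to 54 bases and a TATA box, TATAAA, at 32 to 27 bases. PTGES held a single match, to the NF-kB letters on the opposite strand at 57 to 48 bases, and PLA2G4A held no match to any of the 8 motifs. Of 35116 promoter windows of the same length, 54.4% held the NF-kB letters, 33.2% the C/EBP letters, 21.2% the TGACG core and 10.7% the TATA box, while AP-1 (TGANTCA) and the interferon motif GAS (TTCNNNGAA) were each in 6.57%, the E-box (CACGTG) in 6.34% and the interferon motif ISRE (TTTC repeated after 2 bases) in 3.02%. These matches are descriptions of the letters and not of bound sites. The PTGS2 window also lies partly within PACERR, a non-coding gene on the other strand. It lies inside the gene span given for PTGS2 below, which runs to 186680922. That span covers all 6 annotated transcripts of PTGS2, whereas the window ends at a single RefSeq start.

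IL-1β and TNF each raised PLA2G4A, PTGS2 and PTGES, whose products act in succession from arachidonic acid release to prostaglandin E2. IL-13 lowered PTGS2. PTGIS was called higher after IL-13, but it passed the filter on low counts through OSM and IL-13 itself. That call was lost in 7 of the 8 fits that left out a single library. TNF left PTGIS without a single count in any of its 4 libraries, and the rise of PTGES after IFNγ came from 2 of its 4 libraries. In all, 10 of the 60 member tests were called, 8 upward and 2 downward. All 10 had an absolute log2 fold change above 1.5, and in 8 the cytokine and unstimulated libraries did not overlap. How many of all genes tested pass that fold or do not overlap was not counted, so these numbers only describe the 10 calls. The shares of all genes called are given by cytokine below.

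**Figure D1:**
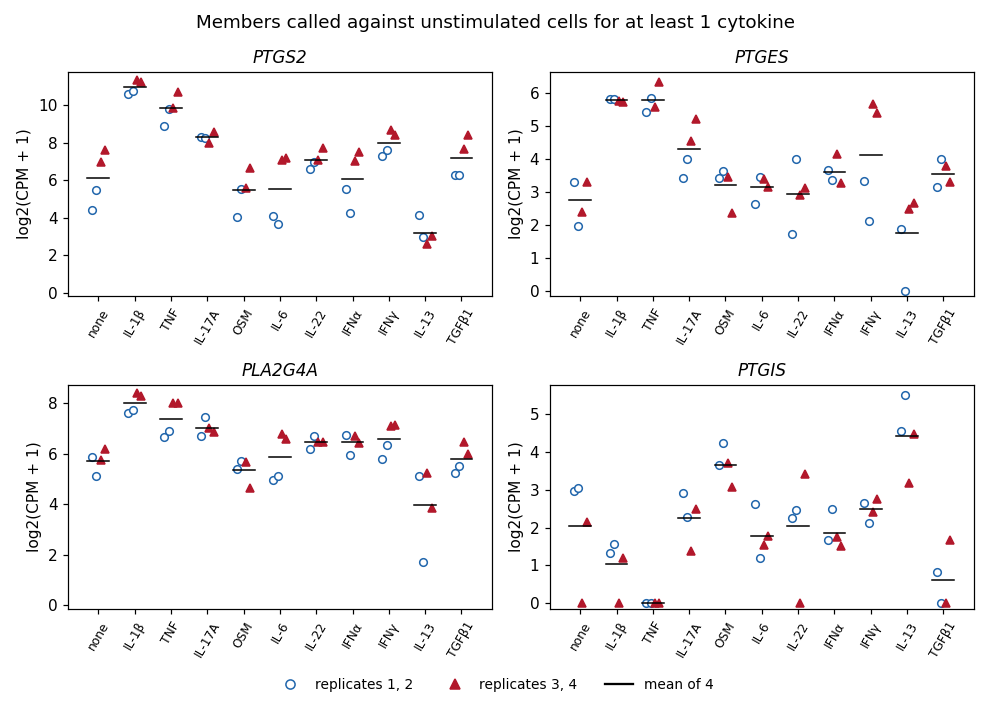
Levels of PTGS2, PTGES, PLA2G4A and PTGIS on a log2(CPM + 1) scale in each of the 44 libraries, by cytokine (none, unstimulated). Circles are replicates 1 and 2, triangles replicates 3 and 4, and bars the mean of 4; all 4 IL-1β and all 4 TNF libraries sit above every unstimulated library for the first 3 genes, and PTGIS is at 0 in all 4 TNF libraries.

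By cytokine, 3 of the 6 tested members were called higher after IL-1β (PLA2G4A, PTGS2 and PTGES), against 3.46% of all genes tested called higher and 7.38% called in either direction. For TNF the same 3 were called higher and PTGIS lower, against 5.37% of genes called higher, 6.09% called lower and 11.5% in either direction. IFNγ had 1 member called higher (PTGES), where 5.52% of genes were called higher and 10.6% in either direction. IL-13 had 1 member higher (PTGIS) and 1 lower (PTGS2), where 1.53% of genes were called higher, 2.4% lower and 3.93% in either direction. The median log2 fold change of the 6 tested members was 1.27 for IL-1β, 1.08 for TNF, 1.01 for IL-17A, 0.67 for IFNγ, 0.58 for TGFβ1 and -0.96 for IL-13, and between -0.20 and 0.34 for the other 4, whereas the medians over all genes tested lay between -0.05 and 0.00 for the 10 cytokines.

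For the other 6 cytokines edgeR called 0 members, and the background ranged from 0% to 9.85%. It was 1.52% of genes for IL-17A, 3.96% for OSM, 0.0105% for IL-6 (1 gene), 0% for IL-22, 9.85% for IFNα and 5.69% for TGFβ1. At an unadjusted p under 0.05, 3 members passed for IL-17A (PTGS2, PTGES and PLA2G4A), 1 for OSM and 1 for TGFβ1 (PTGIS for both). For IL-6, IL-22 and IFNα, 0 passed. Among all 9513 genes tested, 1195 passed this threshold for IL-17A, 1455 for OSM, 1799 for TGFβ1, 233 for IL-6 and 2034 for IFNα. The 1 of 6 tested members for OSM and for TGFβ1 was therefore near the share of all genes. DESeq2 called 2 members for IL-17A, where it called 239 of all genes, and 0 for each of the other 5. For IL-22, edgeR had 1037 genes with an unadjusted p under 0.05, and DESeq2 called 112 genes.

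**Figure D2:**
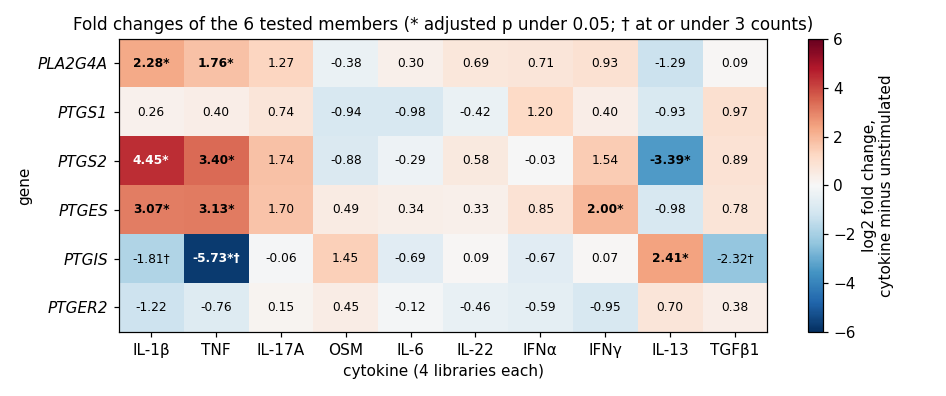
Heat map of log2 fold changes (cytokine minus unstimulated, color scale from -6 to 6) of the 6 tested members for the 10 cytokines, with asterisks at the 10 calls. A dagger marks PTGIS where all 4 cytokine libraries were at or under 3 counts, so that the fitted value is no measure of size; IL-1β and TNF share the strongest red cells, in PTGS2 and PTGES.

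Arachidonic acid release came first. PLA2G4A (chr1:186828949-186988981, 18 exons in its canonical transcript) was at 58.3, 33.5, 52.8 and 71.7 CPM in the 4 unstimulated libraries. After IL-1β it was at 194.3, 213.4, 334.8 and 314.5 CPM, and after TNF at 99.6, 118.0, 255.8 and 260.3 CPM. Both groups lay wholly above the unstimulated libraries. The mean rose from 54.1 ± 15.8 to 264.3 ± 70.7 CPM after IL-1β (SD, n = 4), a log2 fold change of 2.28 ± 0.40 (SE, adjusted p = 5.99e-05), and to 183.4 ± 86.6 CPM after TNF, 1.76 ± 0.40 (adjusted p = 0.00148). With replicates 1 and 2 alone the TNF value was 1.23 (adjusted p = 0.123).

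IL-17A gave PLA2G4A levels of 104.4, 175.5, 129.0 and 116.6 CPM, again all above the unstimulated libraries, but the log2 fold change of 1.27 ± 0.39 did not pass (adjusted p = 0.0987). It passed with DESeq2 (adjusted p = 0.0319) and when only the 8 libraries of these groups were fitted (adjusted p = 0.0170). At the other end was IL-13, at 33.9, 2.32, 36.4 and 13.3 CPM, 2 libraries of which overlapped the unstimulated range. Its log2 fold change of -1.29 ± 0.43 did not pass either (adjusted p = 0.0848), although it did with DESeq2 (adjusted p = 0.0336), with library totals as the only scaling (adjusted p = 0.0450) and without IL-13 replicate 3 (adjusted p = 0.04996).

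Next in the chain are the cyclooxygenases. PTGS2, the inducible cyclooxygenase COX-2 (chr1:186671791-186680922, 10 exons), had the widest span of the members. Unstimulated libraries held 20.6, 43.7, 125.9 and 192.6 CPM. IL-1β brought PTGS2 to 1550.0, 1713.4, 2597.7 and 2437.2 CPM and TNF to 476.6, 905.2, 934.8 and 1688.4 CPM. Neither group overlapped the unstimulated libraries, and the lowest TNF library stood above the highest one of IL-17A, IFNγ and each remaining cytokine except IL-1β. The mean rose from 95.7 ± 78.9 to 2074.6 ± 519.9 CPM after IL-1β, 21.7-fold and a log2 fold change of 4.45 ± 0.65 (adjusted p = 2.54e-06), and to 1001.2 ± 503.7 CPM after TNF, 10.5-fold and 3.40 ± 0.62 (adjusted p = 0.000107).

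IL-13 moved PTGS2 the other way. Its libraries held 16.6, 6.95, 5.19 and 7.10 CPM, which were 25, 9, 9 and 8 counts, all below the lowest unstimulated library. The mean of 8.96 ± 5.16 CPM corresponded to a log2 fold change of -3.39 ± 0.75 (adjusted p = 0.0039). It was -1.34 (adjusted p = 0.195) with replicates 1 and 2 alone and -4.71 with replicates 3 and 4 alone, where the unstimulated libraries were higher.

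After IL-17A, PTGS2 was at 320.5, 309.7, 252.4 and 387.6 CPM, every library above the unstimulated ones, with a log2 fold change of 1.74 ± 0.60 that did not pass (adjusted p = 0.154). It was not called with DESeq2. It was called with the replicate number as a term in the fit (2.16, adjusted p = 0.00141), with replicates 1 and 2 alone (3.34, adjusted p = 3.92e-05) and when all genes with any count were tested. IFNγ gave 156.7, 197.7, 415.3 and 336.8 CPM, overlapping the unstimulated libraries, and 1.54 ± 0.60 (adjusted p = 0.0902). The IFNγ value was not called with DESeq2. It was called without unstimulated replicate 4 (2.17, adjusted p = 0.0311) and with the replicate number as a term (1.77, adjusted p = 0.00272). It was also called with replicates 1 and 2 alone (2.52, adjusted p = 0.000426), with replicates 3 and 4 alone (1.24, adjusted p = 0.00733) and when all genes with any count were tested. With replicates 1 and 2 alone, IL-22 was called as well (1.83, adjusted p = 0.0236). The remaining 5 cytokines had log2 fold changes from -0.88 (OSM) to 0.89 (TGFβ1), and their libraries overlapped the unstimulated ones. None passed at the main settings (adjusted p from 0.451 to 1), although OSM and TGFβ1 were called when all genes with any count were tested. That fit gave PTGS2 far smaller p-values at near-equal fold changes. For OSM it gave -0.87 (adjusted p = 0.00234), where the unadjusted p of the main fit was 0.161. Its calls therefore do not show changes beyond the spread between replicates in the main fit. Why its p-values were smaller was not tested.

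Much of the spread of PTGS2 followed the replicate number. In 9 of the 11 groups, replicates 3 and 4 were both above replicates 1 and 2, the exceptions being IL-17A and IL-13. Of all 9513 genes tested, 11 (0.116%) showed this in at least 9 groups. PLA2G4A did so in 5 groups, PTGES in 3, PTGER2 in 2, PTGS1 in 1 and PTGIS in 0. What the replicate numbers stand for is not given in the labels. Fitted on replicates 1 and 2 alone, the members gave 9 calls, and on replicates 3 and 4 alone, 10. The rise of PTGS2 was called in both, at 5.70 and 3.98 for IL-1β and at 4.48 and 3.05 for TNF.

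PTGS1, the constitutive cyclooxygenase COX-1 (chr9:122370530-122395703), was called for 0 of the 10 cytokines by edgeR or DESeq2, and had 0 unadjusted p under 0.05 in edgeR. Its values scattered within groups, for example 74.4, 0, 12.0 and 53.3 CPM in the unstimulated libraries and 0, 0, 11.5 and 90.3 CPM after IL-22. Over all 44 libraries it ran from 0 to 209 counts, stood below 1 count in 7 libraries and was not a whole number in 39. A gene's estimated count can be not whole where reads are shared with transcripts counted under another gene. PTGS2, with 6 annotated transcripts of its own, was whole in all 44 libraries. How many of these reads belong to PTGS1 is therefore uncertain, and their source was not tested. Means ranged from 17.9 ± 22.5 CPM (IL-6) to 82.0 ± 29.5 CPM (IFNα). The IFNα log2 fold change was 1.20 ± 0.96 (95% interval -0.73 to 3.14, adjusted p = 0.536). It was called only when all genes with any count were tested (1.18, adjusted p = 0.0042). That call came with a far smaller p-value and not with a larger change.

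Of the terminal synthases, PTGES (microsomal prostaglandin E synthase, chr9:129738331-129753042, 3 exons) moved with PTGS2 under IL-1β and TNF. Unstimulated libraries were at 8.81, 2.92, 4.22 and 8.88 CPM, which are 18, 4, 6 and 13 counts. IL-1β gave 55.0, 55.7, 52.7 and 51.9 CPM, a spread narrower than that of PTGS2 in the same libraries. At 80 to 109 counts each, counting error alone would allow a wider spread. TNF gave 41.7, 56.0, 46.5 and 78.7 CPM. Every library of both groups stood above the unstimulated ones. The log2 fold change was 3.07 ± 0.54 for IL-1β (means 53.8 ± 1.80 against 6.21 ± 3.09 CPM, adjusted p = 6.74e-05) and 3.13 ± 0.54 for TNF (mean 55.7 ± 16.5 CPM, adjusted p = 4.51e-05).

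IFNγ split its own replicates at PTGES, with 9.04 and 3.32 CPM in replicates 1 and 2 and 49.4 and 40.6 CPM in replicates 3 and 4. The first pair lay within or near the unstimulated range and the second pair above every unstimulated library, though below every IL-1β library. The log2 fold change of 2.00 ± 0.54 was called (adjusted p = 0.0105) but was 0.05 (adjusted p = 0.988) with replicates 1 and 2 alone. Leaving out IFNγ replicate 3 (1.53, adjusted p = 0.0964), IFNγ replicate 4 (1.70, adjusted p = 0.0631) or replicate 2 of the unstimulated cells (1.80, adjusted p = 0.0512) ended the call. It was not called in the fit of the 8 libraries alone (adjusted p = 0.131). IL-17A gave 9.74, 14.8, 22.4 and 36.2 CPM, all above the unstimulated libraries, with 1.70 ± 0.54 that did not pass (adjusted p = 0.112, and 0.0306 with DESeq2).

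PTGIS, prostacyclin synthase (chr20:49503874-49568137, 10 exons), was scarce. It passed the filter on low counts through OSM and IL-13, the groups in which all 4 libraries exceeded the filter's 6.75 CPM, and its unstimulated libraries held 6.86, 7.29, 0 and 3.42 CPM, or 14, 10, 0 and 5 counts. IL-13 gave 22.6, 44.0, 8.08 and 21.3 CPM, all above the unstimulated libraries, and OSM gave 11.6, 17.8, 12.0 and 7.42 CPM, also all above them. The IL-13 log2 fold change was 2.41 ± 0.71 (means 24.0 ± 14.9 against 4.39 ± 3.40 CPM, adjusted p = 0.0427), and that of OSM, 1.45 ± 0.70, did not pass (adjusted p = 0.316). The IL-13 call was kept only without IL-13 replicate 3 among the 8 fits that left out a single library of these groups, and the adjusted p reached 0.185 without IL-13 replicate 2, 0.125 without unstimulated replicate 4 and 0.0988 without unstimulated replicate 3. It was between 0.0550 and 0.0694 without unstimulated replicate 1 or 2 or IL-13 replicate 1 or 4.

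TNF was the only cytokine with PTGIS at 0 in all 4 libraries, where 3 counts would have been 2.14 CPM on average. Against the unstimulated mean this makes PTGIS at least 2.05-fold lower after TNF, and the call (adjusted p = 0.00138) was kept in all 8 fits that left out a library. In the fit of only the 8 TNF and unstimulated libraries, PTGIS did not pass the filter and was not tested. Since 1 unstimulated library was also at 0, the groups touched. IL-1β (0 to 1.99 CPM) and TGFβ1 (0 to 2.20 CPM) held at most 3 counts in any library, and neither was called (adjusted p = 0.223 and 0.129, and 0.0497 for TGFβ1 without TGFβ1 replicate 4). Against the same unstimulated mean, 3 counts would be 2.39-fold lower for IL-1β and 1.68-fold lower for TGFβ1. All these bounds take that mean as given, without its spread (4.39 ± 3.40 CPM), and vary with library depth. PTGIS counts were not whole in 24 of the 44 libraries.

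PTGDS, which makes prostaglandin D2 (chr9:136975092-136981742), held 0 to 14 counts per library, with a median of 4, and exceeded 3 counts in 23 libraries. Group means ran up to 5.64 ± 4.55 CPM after IFNγ, where the libraries held 3.77, 1.66, 12.1 and 4.98 CPM, against 2.20 ± 1.31 CPM in unstimulated cells. These levels were too low to be tested. HPGD, the dehydrogenase that inactivates prostaglandins (chr4:174490175-174523154), was at 0 counts in all 44 libraries, which over the summed depth of all libraries allows up to 0.0467 CPM, counting error only.

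The receptors were modest in level. PTGER2 (chr14:52314305-52328598, 2 exons), a receptor that raises cyclic AMP on binding prostaglandin E2, was at 20.6, 13.1, 17.6 and 26.6 CPM in unstimulated cells. IL-13 gave 37.8, 25.5, 32.9 and 31.1 CPM and IL-1β 7.57, 3.98, 16.5 and 5.19 CPM, so that 3 of the 4 IL-1β libraries were below the lowest unstimulated one. Against unstimulated cells neither passed, at 0.70 ± 0.40 (adjusted p = 0.41) for IL-13 and -1.22 ± 0.42 (adjusted p = 0.0698) for IL-1β. The IL-1β value passed with DESeq2 (adjusted p = 0.0341), with library totals as the only scaling (adjusted p = 0.0411) and without IL-1β replicate 3 (adjusted p = 0.0112). IFNγ libraries, at 8.29, 9.97, 12.1 and 9.97 CPM, all lay below the unstimulated ones, but the log2 fold change of -0.95 ± 0.42 did not pass (adjusted p = 0.156).

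PTGER4 (chr5:40679915-40693735), the other receptor of the same signal, was near the floor throughout. It had 0 to 7 counts per library, was at 0 in 22 libraries and exceeded 3 counts in 8. OSM was the only group with a count in all 4 libraries (5, 4, 6 and 2). It was not tested, and a difference between groups was not detectable at this depth. PTGER4 lies within TTC33 on the other strand, and whether the counting used strand is not given in the sources used here.

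**Figure D3:**
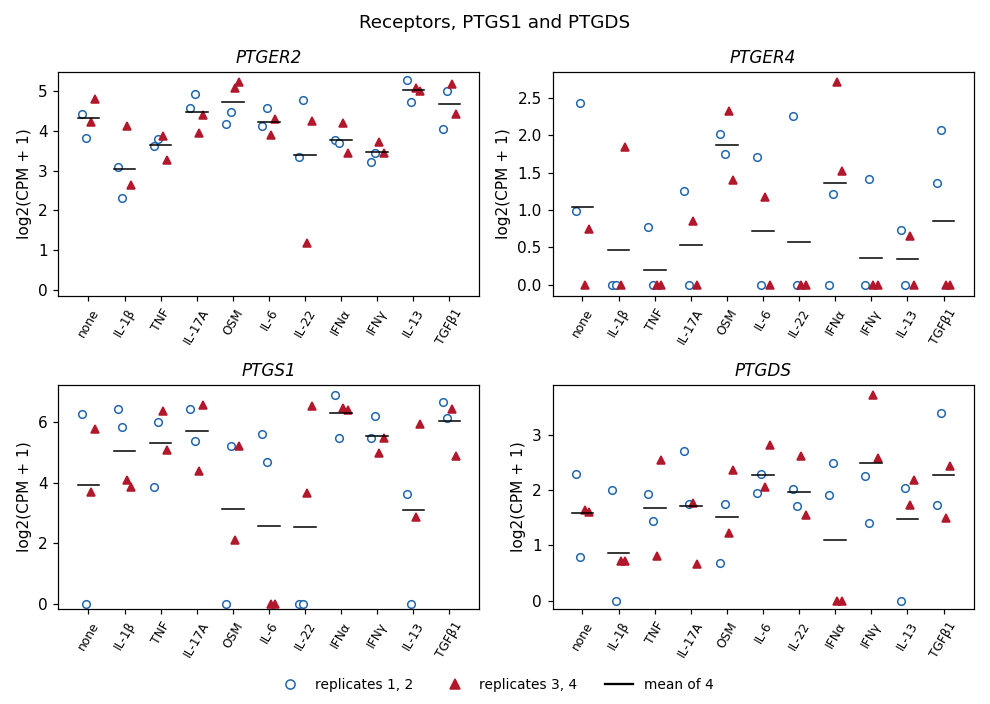
Levels of PTGER2, PTGER4, PTGS1 and PTGDS on a log2(CPM + 1) scale in each of the 44 libraries, by cytokine (none, unstimulated), drawn as circles for replicates 1 and 2, triangles for replicates 3 and 4 and bars for means of 4. PTGER2 is highest after IL-13 and lowest after IL-1β, PTGER4 stays near 0, and PTGS1 scatters from 0 to over 90 CPM within the IL-22 group.

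Cytokines were also compared directly with each other for 13 member pairs, picked after the levels were seen. IL-1β and IL-13 differed for 5 members and were the ends of the order for 3 of them (PTGS2, PLA2G4A and PTGER2). Between these groups 13.5% of all genes were called. PTGS2 was higher after IL-1β by 7.83 ± 0.81 on the log2 scale (adjusted p = 3.17e-10), PTGES by 4.05 ± 0.59 (adjusted p = 1.17e-06) and PLA2G4A by 3.57 ± 0.43 (adjusted p = 1.89e-08). In the reverse direction, the IL-1β minus IL-13 difference was -4.22 ± 0.81 for PTGIS (adjusted p = 0.000139) and -1.93 ± 0.42 for PTGER2 (adjusted p = 0.000751). For PTGIS the fitted value is no measure of size, as IL-1β was at or under 3 counts. PTGIS also passed the filter on low counts through OSM and IL-13 itself, so this test is no separate support for its rise after IL-13. PTGER2 was also lower after TNF than after IL-13, by -1.46 ± 0.41 (adjusted p = 0.0096), where 17.1% of genes were called.

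On the 3 genes that both raised, no difference between IL-1β and TNF passed. The IL-1β minus TNF difference was 1.05 ± 0.56 for PTGS2 (adjusted p = 0.473), -0.05 ± 0.47 for PTGES (adjusted p = 0.986) and 0.52 ± 0.37 for PLA2G4A (adjusted p = 0.622), with 1.15% of genes called between these groups. PTGS2 was higher after IL-1β than after IL-17A by 2.71 ± 0.60 (adjusted p = 0.00311), where 3.4% of genes were called. TNF exceeded IL-17A by 1.66 ± 0.58, which did not pass (adjusted p = 0.0625) where 8.5% of genes did, but did pass without TNF replicate 1 (adjusted p = 0.0442).

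Ordered by mean level, PTGS2 ran from IL-1β (2074.6 CPM) through TNF, IL-17A (317.6), IFNγ (276.6), TGFβ1 (174.9), IL-22 (141.2), unstimulated (95.7), IFNα (93.7), IL-6 (77.6) and OSM (52.3) to IL-13 (8.96 CPM). Of the 10 neighbouring pairs in this order, 1 differed, OSM over IL-13 by 2.50 ± 0.77 (adjusted p = 0.036), where 7.38% of all genes were called. That call was lost in 6 of the 8 fits that left out a library, namely OSM replicate 2, 3 or 4 or IL-13 replicate 2, 3 or 4, with adjusted p up to 0.144. For PTGIS, whose highest means were after IL-13 and OSM, the difference between them did not pass (OSM minus IL-13 -0.96 ± 0.66, adjusted p = 0.459). No neighbours passed in the orders of PTGES (lowest adjusted p 0.167), PLA2G4A (0.228), PTGIS (0.203), PTGER2 (0.777) or PTGS1 (0.869).

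Levels of different genes were compared per kilobase of the canonical transcript. In unstimulated cells PTGS2 (21.2 ± 17.5 CPM per kilobase) and PLA2G4A (18.8 ± 5.50) were the highest members, followed by PTGER2 (7.92 ± 2.31), PTGS1 (6.96 ± 6.94), PTGES (3.55 ± 1.77), PTGDS (2.71 ± 1.61), PTGIS (0.788 ± 0.611) and PTGER4 (0.440 ± 0.569). PTGS2 and PLA2G4A overlapped widely in this order. After IL-1β, PTGS2 was at 460.0 ± 115.3, PLA2G4A at 91.8 ± 24.6 and PTGES at 30.7 ± 1.03 CPM per kilobase, and after IL-13 the highest member was PTGER2, at 12.9 ± 2.08.

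The genes whose 11 group means (log2 CPM) most resembled those of each member were picked by Pearson's r among 9502 other genes, as a description without a test. For PTGS2 they were ACSL4 (r = 0.96), which activates arachidonic acid for storage in lipids, the neutrophil chemokine CXCL8 (r = 0.95) and IL1B itself (r = 0.95), whose mRNA went from 21.7 ± 24.6 CPM in unstimulated cells to 494.9 ± 176.8 after IL-1β, 436.4 ± 65.3 after TNF and 5.66 ± 7.95 after IL-13. PTGES was most like CXCL8 (r = 0.97), the mitochondrial superoxide dismutase SOD2 (r = 0.96) and the chemokine CXCL3 (r = 0.96). PLA2G4A was most like the secreted hormone STC1 (r = 0.95), ACSL4 (r = 0.94) and the bradykinin receptor BDKRB2 (r = 0.94). Over all 44 libraries these 9 values lay between 0.77 (BDKRB2) and 0.94 (ACSL4 with PTGS2).

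For PTGIS (EIF2S2, RIOX2 and WFS1), PTGER2 (CCZ1, TRIT1 and ZNF407-AS1) and PTGS1 (CHD6, CEBPZ and SDF2) the 3 nearest genes had r from 0.88 to 0.93 over the group means, and from 0.14 to 0.79 over the libraries. Among the members, PTGS2 had r = 0.95 with PLA2G4A and 0.94 with PTGES, and -0.74 with both PTGIS and PTGER2, over the same 11 group means. Groups with large changes weigh heavily in such values.

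Around the 9 genes, a list of 38 further genes of the pathway was examined, of which 21 were tested and 7 called for at least 1 cytokine, 7 times higher and 11 times lower. The share of all genes called for at least 1 of the 10 cytokines was not counted, so the 7 says nothing about the pathway as a set. The list's median log2 fold change per cytokine lay between -0.18 and 0.21. Of the 21 tested, 4 were called for IL-1β (3 higher, against 7.38% of all genes called), 4 for TNF (3 higher, 11.5%), 4 for IFNγ (1 higher, 10.6%), 2 for OSM (both lower, 3.96%), 2 for IFNα (both lower, 9.85%), 1 for IL-13 (lower, 3.93%) and 1 for TGFβ1 (lower, 5.69%). The IFNα, IL-13 and TGFβ1 counts were near those shares. Among the 17 genes not tested, HPGDS, PTGDR, PLA2G2A, ALOX5, LTC4S and ALOX15 were at 0 counts in every library.

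**Figure D4:**
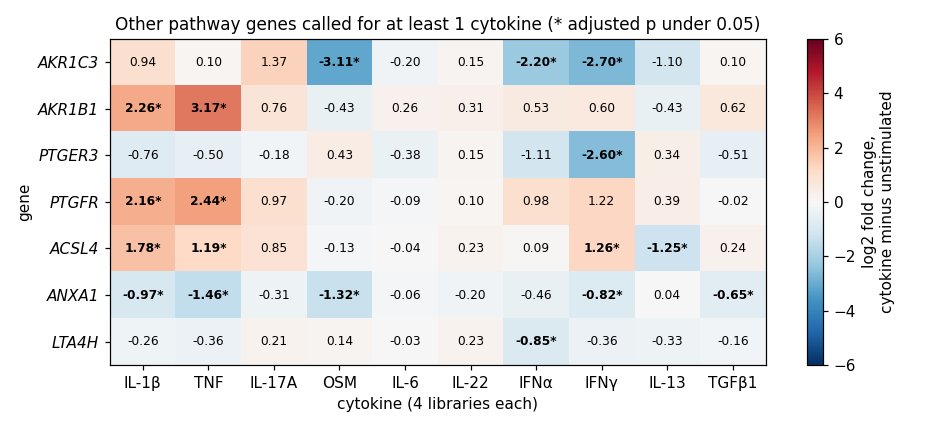
Heat map of log2 fold changes (cytokine minus unstimulated, color scale from -6 to 6) of the 7 further pathway genes called for at least 1 cytokine, with asterisks at the 18 calls. AKR1B1 and PTGFR were called higher after IL-1β and TNF, and ANXA1 is blue at all 5 of its calls.

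Of the synthesis genes, AKR1B1, an aldose reductase that can also make prostaglandin F2α, rose from 124.7 to 191.0 CPM in unstimulated libraries to 698.3 to 900.2 CPM after IL-1β and 1125 to 1762 CPM after TNF. The log2 fold changes were 2.26 ± 0.24 (adjusted p = 1.80e-09) and 3.17 ± 0.25 (adjusted p = 6.42e-13). AKR1C3, another reductase with prostaglandin F synthase activity, fell from 16.1 ± 1.04 CPM to 1.73 ± 1.72 after OSM (-3.11 ± 0.73, adjusted p = 0.00653), 2.49 ± 3.29 after IFNγ (-2.70 ± 0.73, adjusted p = 0.00972) and 3.31 ± 3.35 after IFNα (-2.20 ± 0.67, adjusted p = 0.0249). Those groups did not overlap the unstimulated libraries. AKR1C3 has near-identical paralogs, so the division of reads among them is uncertain.

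Of the receptors, PTGFR, which binds prostaglandin F2α, rose from 9.14 ± 6.90 CPM to 41.1 ± 10.9 after IL-1β (2.16 ± 0.52, adjusted p = 0.00381) and 49.7 ± 26.5 after TNF (2.44 ± 0.52, adjusted p = 0.000775). The lowest TNF library, at 17.7 CPM, lay below the highest unstimulated one, at 19.0 CPM. PTGER3, the prostaglandin E2 receptor that lowers cyclic AMP, fell after IFNγ from 18.3 ± 10.5 to 2.92 ± 2.94 CPM (-2.60 ± 0.63, adjusted p = 0.00363), without overlap.

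Among genes of arachidonate release and return, ACSL4 rose after IL-1β (1.78 ± 0.37, adjusted p = 0.000667), IFNγ (1.26 ± 0.36, adjusted p = 0.0165) and TNF (1.19 ± 0.36, adjusted p = 0.0224) and fell after IL-13 (-1.25 ± 0.37, adjusted p = 0.0438), from 268.2 ± 160.6 CPM in unstimulated cells. The TNF and IL-13 libraries overlapped the unstimulated ones. ANXA1, a phospholipase A2 inhibitor and mediator of glucocorticoid action, was lower in 5 comparisons, from 1725.0 ± 301.4 CPM to 626.7 ± 54.8 after TNF (-1.46 ± 0.19, adjusted p = 1.24e-07), 692.9 ± 130.0 after OSM (-1.32 ± 0.19, adjusted p = 3.24e-06) and 880.2 ± 107.8 after IL-1β (-0.97 ± 0.18, adjusted p = 0.000216). It also fell after IFNγ (-0.82 ± 0.18, adjusted p = 0.00173) and TGFβ1 (-0.65 ± 0.18, adjusted p = 0.0239). In the leukotriene branch LTA4H fell after IFNα, from 56.3 ± 10.7 to 31.4 ± 12.6 CPM (-0.85 ± 0.28, adjusted p = 0.0424).

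Overlapping genes bear on a few of these values. PTGS2 overlaps PACERR on the other strand, which held 0 to 10 counts per library and 0.274% of the counts of PTGS2 in all. PTGS1 and PTGDS each overlap a further annotated gene on their own strand, and HPGD one on the other strand.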

How the data were processed

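RNA of Ccd18-Co cells was sequenced in 44 libraries. Per the labels, reads were checked with FastQC 0.11.9 and MultiQC 1.14 and quantified with kallisto 0.48.0 against hg38. The transcript release and the strand setting are not given in the sources used here. The authors deposited 1 table of estimated counts per gene symbol, not scaled for depth and not whole in 5.77% of cells, which were rounded here.

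Genes were filtered (filterByExpr), scaled by TMM and fitted over all 44 libraries with edgeR 4.0.16 (quasi-likelihood test, R 4.3.3); standard errors are the log2 fold change over the root of F. Adjusted p-values are Benjamini-Hochberg over 9513 genes within each comparison. The script was tested on simulated data. DESeq2 1.42.0 was an alternative. Positions came from GENCODE v44 on GRCh38, and promoters from RefSeq (8 of the 9 members had an entry and PTGIS did not; the window nearest the canonical start was used).

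The members and lists were chosen with earlier results of these data known. Named were the members, the called genes of the pathway list, the 3 genes most like each tested member (mean log2 CPM of at least 1, prior count 2), and 1 target gene per cytokine. Among 66 pairs of replicates of 1 group, 0 were identical, and the smallest chi-square over its degrees of freedom was 3.17.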

Additional observations from a re-analysis of the deposited data

Results flagged for a closer look

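A gap between 1 library and the other 3 of its group that was large relative to the group's range was looked for in 80 combinations of member and group, using Dixon's ratio of gap to range against its 95% critical value, which chance exceeds in about 1 in 20 groups, and 4 were found. PTGS1 after IL-22 was at 90.3 CPM in replicate 4 and at 0 to 11.5 CPM in the others (ratio 0.872). PTGS2 after IL-13 was at 16.6 CPM in replicate 1 and at 5.19 to 7.10 CPM in the others (ratio 0.832). PTGER4 was above 0 in a single library after IL-1β (replicate 4, 2.59 CPM, ratio 1) and after IL-22 (replicate 1, 3.80 CPM, ratio 1), both within 5 counts.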

How the results depend on the processing

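The 10 calls became 10 with DESeq2's size factors in edgeR, 11 with library totals only, 14 with DESeq2's test, 18 with all genes with any count, 10 with a minimum of 10 counts in 4 libraries and 8 with only the 8 libraries compared. The calls of PTGS2 and PTGES for IL-1β and TNF and of PLA2G4A for IL-1β were kept under each of these, each fit without 1 library, and with replicates 1 and 2 or 3 and 4 alone. The fit of all genes with any count is a weaker check, since its p-values for PTGS2 were far smaller at near-equal fold changes. For IL-17A it gave 1.75 (adjusted p = 4.29e-15), against 1.74 (adjusted p = 0.154) in the main fit. The labels give the replicate numbers no meaning, and the numbers did not meet the criterion for pairing, which was a correlation over 0.1 between the deviations of each same-numbered pair: 20 of 220 pairs did (mean 0.02). As a hint from the data that the numbers may carry structure, 22 of 44 libraries were closest to their own of the 4 numbers. The main fit has no term for the replicate number. With the replicate number as a block there were 14 calls, 2 each for IL-17A and IFNγ, adding PTGS2 (2.16, adjusted p = 0.00141) and PLA2G4A (adjusted p = 0.0304) for IL-17A, PTGS2 for IFNγ (1.77, adjusted p = 0.00272) and PLA2G4A for IL-13 (adjusted p = 0.0342).

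Members called for IL-17A were 2 with DESeq2, 3 with all genes, 1 with the 8 libraries and 1 with replicates 1 and 2; for IFNγ 3 with all genes, 0 with the 8 libraries and 3 with replicates 3 and 4; for IL-13 1 with the 8 libraries, 0 with replicates 1 and 2 and 1 with replicates 3 and 4. All genes gave 1 for OSM, IFNα and TGFβ1, and replicates 1 and 2 gave 1 for IL-22. Leaving out single libraries gave 0 to 2 for IFNγ, 1 to 3 for IL-13 and 0 to 1 for TGFβ1. PTGIS after TNF was not tested with the 8 libraries. With replicates 3 and 4 alone it was not called (adjusted p = 0.268), where 1 unstimulated library and both TNF libraries were at 0. PTGIS after IL-13 was not called with library totals only (adjusted p = 0.0707), all genes (0.0521), the 8 libraries (0.0576), replicates 1 and 2 (0.113) or replicates 3 and 4 (0.358). The fits on replicates 1 and 2 or 3 and 4 were chosen after seeing the data.

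Between cytokines, PTGS2 passed for IL-1β over TNF with all genes (1.05), and for TNF over IL-17A with library totals (1.70), all genes (1.66), the 8 libraries (1.67), the replicate block (1.44) and replicates 3 and 4 (2.04); without single libraries it was 1.29 to 1.90. OSM over IL-13 was not called with replicates 1 and 2 (1.34), and was 2.00 to 3.02 without single libraries. Not called were PTGIS (-4.33) and PTGER2 (-1.55) for IL-1β minus IL-13 with replicates 3 and 4, and PTGER2 for TNF minus IL-13 with replicates 1 and 2 (-1.40) or 3 and 4 (-1.54). IL-1β minus TNF at PTGES turned to 0.17 with replicates 1 and 2 and to 0.15 without TNF replicate 4 (range -0.18 to 0.15). The cause of these changes was not tested. The longest transcript left the levels per kilobase given for unstimulated, IL-1β and IL-13 libraries within 1 SD, except PTGES after IL-1β (28.8). PTGDS, PTGER4 and PTGIS, near 3 counts per library, were limited by depth.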
